A study of Rattus norvegicus with 6 samples.

Results

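The actin cytoskeleton and focal adhesion genes are 40 genes taken by symbol from a table of 32623 genes, and all 40 symbols matched a single identifier. They were divided by role into 10 genes of actin and its crosslinkers, 9 contractile genes, 9 genes of the adhesion plaque, 5 integrins, 5 further genes (Rhoa, Rnd3, Cdc42ep3, Diaph1 and the transcription factor gene Srf), and the pair Lmna and Vim. Expression was measured by polyA RNA sequencing in primary liver sinusoidal endothelial cells of Han Wistar rats, the cells that line the liver's capillaries. Every library came from cells that spent 48 h in a perfused device together with hepatocytes, stellate cells and hepatic macrophages, under 1.15 dyn/cm2 of shear, and only the pressure differed. The physiological group was held at 1 mmHg and the pathological group at 12 mmHg, with 3 libraries each. No genetic change or drug is named in the labels, which also do not state the age of the rats or whether libraries came from separate animals. Values below are given for physiological replicates 1, 2 and 3 and then for pathological replicates 1, 2 and 3, always in that order.

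Actin filaments give cells their shape, and crosslinkers such as filamin and alpha-actinin join them into networks. Non-muscle myosin II pulls on these filaments when its regulatory light chain is phosphorylated by kinases such as myosin light chain kinase. Integrins grip the matrix outside the cell and are tied to the filaments by talin, vinculin and the other proteins of the focal adhesion, which transmits and senses force. In the sinusoidal endothelium the actin network also frames the fenestrae, the open pores of these cells. Free actin monomer holds back a cofactor of SRF, so genes of the network are among the best known SRF targets.

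SRF binds a motif called the CArG box, and the promoters in which it was found are shown because they tie members to this regulator by sequence. Windows from 250 bases before to 50 bases after the transcription start were read from RefSeq on the rat build GRCr8, and 34 of the 40 members had one. Actb, Actn4, Myl9, Ptk2, Parva and Itgb3 had none in the table. A CArG box, whose general pattern is the same on both strands, was found for 4 of the 34 members, or 11.8%. It was found in 1.77% of the 27457 genes that had a window. The 160 bases before the start are given below from 5′ to 3′ on the gene's own strand, with each CArG box in capitals. They lie at chr3:55998495-55998654 (minus strand) for Rnd3, chr7:10370313-10370472 (minus) for Cnn2, chr9:21923916-21924075 (plus) for Srf and chr10:106120952-106121111 (minus) for Actg1.
Rnd3: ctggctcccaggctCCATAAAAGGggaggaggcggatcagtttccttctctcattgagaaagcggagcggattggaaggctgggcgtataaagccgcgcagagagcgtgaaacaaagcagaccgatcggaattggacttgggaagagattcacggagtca
Cnn2: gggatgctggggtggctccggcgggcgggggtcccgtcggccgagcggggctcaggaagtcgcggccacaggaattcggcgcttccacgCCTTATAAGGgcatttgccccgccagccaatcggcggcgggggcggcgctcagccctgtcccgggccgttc
Srf: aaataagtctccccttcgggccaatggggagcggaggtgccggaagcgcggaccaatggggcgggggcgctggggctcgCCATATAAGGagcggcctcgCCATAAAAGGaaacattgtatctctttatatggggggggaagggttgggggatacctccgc
Actg1: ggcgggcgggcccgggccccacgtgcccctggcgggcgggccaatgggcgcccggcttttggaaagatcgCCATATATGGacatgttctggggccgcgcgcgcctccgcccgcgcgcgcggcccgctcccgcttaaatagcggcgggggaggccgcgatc
The boxes begin 146 bases before the start in Rnd3, 71 in Cnn2, 90 in Actg1, and 81 and 61 in Srf, which holds a pair of them. The 4 genes did not share an order of libraries, as their values further on show: Rnd3 and Actg1 were highest in pathological replicate 2, and Cnn2 and Srf in physiological replicate 3. A matching sequence describes the window and does not show that SRF is bound there.

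Library totals ran from 8925149 to 24025406 counts, and from 10261 to 17230 genes had a count above 0. The libraries stood apart in RNA of other liver cells, whichever their pressure. Levels are CPM, counts relative to the scaled library total. A list of 30 hepatocyte genes summed to 246, 52900 and 47100 CPM at physiological and to 404, 902 and 79000 CPM at pathological pressure. Physiological replicate 1 and pathological replicates 1 and 2 are therefore called poor in hepatocyte RNA, with 10000 CPM as the limit, and the other 3 libraries rich. Every rich library was also shallower than every poor one. The largest total of a rich library was 17117840 counts and the smallest of a poor one 23649036. At most 12861 genes had a count above 0 in a rich library, and at least 13746 in a poor one. A list of 16 stellate cell genes summed to 575, 1960 and 2290 CPM and to 468, 502 and 2740 CPM. Of sinusoidal endothelial genes, 11 summed to 1610, 6400 and 5250 CPM and to 855, 549 and 7440 CPM, so they too were higher in the rich libraries. So were 13 pan-endothelial genes in sum, at 1370, 2950 and 2210 CPM and 841, 936 and 2620 CPM, and 11 of the 12 tested had a negative log2 fold change. So had 27 of 30 hepatocyte, 10 of 11 sinusoidal endothelial and 10 of 13 tested stellate cell genes, against 6049 of 12742 tested genes. Counts were 10 of 15 for macrophage and 1 of 4 for tested smooth muscle and myofibroblast genes. Of the rich libraries only pathological replicate 3 was at 12 mmHg. Within the pan-endothelial list the endothelial cadherin Cdh5 lay between 184 and 320 CPM in all 6 libraries, while the endothelial claudin Cldn5 was at 0 in every one. A list of 15 macrophage genes summed to 51.4 CPM in pathological replicate 2 and to between 817 and 1390 CPM elsewhere. In bulk RNA, fewer cells of a type and less RNA per cell cannot be told apart.

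No member passed the test of 12 against 1 mmHg. The quasi-likelihood test of edgeR was fitted to 12742 genes and adjusted over all of them, and 0 of 39 tested members had an adjusted p under 0.05, beside 0.0% of all genes. Itga2 did not pass the filter on low counts. At an unadjusted p under 0.05 there were 0 members against 0.259% of all genes, and the smallest unadjusted p of a member was 0.255, for Rnd3 (edgeR adjusted p = 1). DESeq2 and limma-voom also called 0 members. The log2 fold changes, pathological over physiological, were positive for 21 members and negative for 18, with a median of 0.01. Over all tested genes 52.5% were positive and the median was 0.05. The split moved to 18 positive members with library totals alone as the scale. The fold exceeded 2-fold in either direction for 3 of 39 members, Itgav, Mylk and Src, against 28.2% of all genes. It did so for 17 of 138 tested other genes of the pathway, taken up further on. The members also had a higher median level, 199 CPM against 21.2 CPM over all genes. The groups overlapped for all 39 members, where 4.61% of all genes had groups that did not overlap, 3.05% with the pathological libraries below and 1.56% with them above. Standard errors of the members' log2 fold changes ran from 0.53 to 2.82 with a median of 0.78, and the median over all genes was 1.72.

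**Figure D1:**
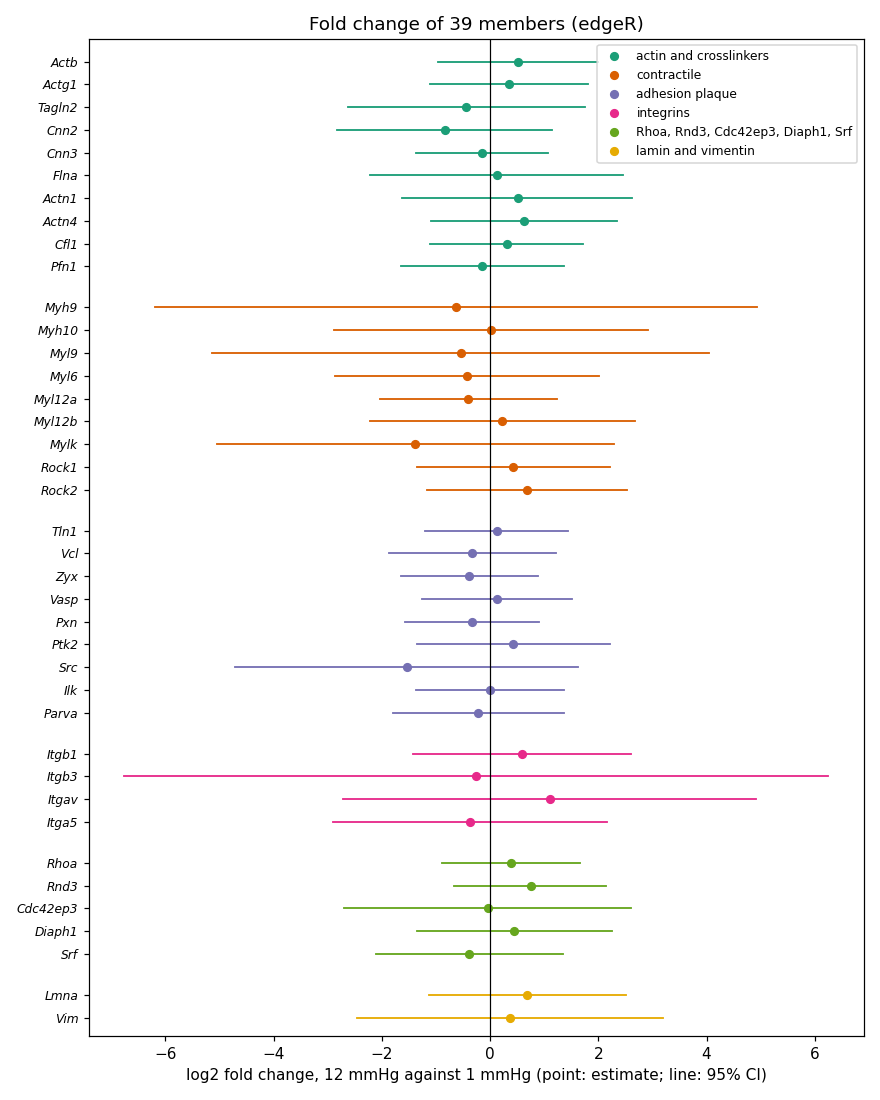
Log2 fold change at 12 mmHg against 1 mmHg (horizontal axis) for the 39 tested members, coloured by role, with the edgeR estimate as a point and its 95% confidence interval as a line. Every interval spans 0, and those of Itgb3, Myh9, Myl9 and Itgav are the widest.

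Many members separated the libraries by hepatocyte RNA, and none separated them by pressure. In 14 of 39 members each poor library was above each rich one, and in 11 each poor library was below each rich one. The same held for 30.2% and 18.3% of all genes, so this split was common among genes and not particular to the members. The first set held both cytoplasmic actins, Flna, Actn1, Actn4, Rock1, Rock2, Tln1, Ptk2, Rhoa, Diaph1 and the integrins Itgb1, Itgav and Itgb3. The other set held Tagln2, Cnn3, Pfn1, Ilk, Parva, the kinase gene Mylk, the light chains Myl6, Myl9, Myl12a and Myl12b, and Myh9 as counted under its own identifier. The part of other cells' RNA in these differences was not tested. Library depth split the libraries in the same way and cannot be told apart from hepatocyte RNA here. Comparing the pressures inside each set of libraries, the pathological libraries were above the physiological ones in both sets for 3 members, Rnd3, Myl6 and Myl9, and below in both for 2, Mylk and Vcl. The background of that pattern was 7.57% for higher and 12.9% for lower.

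**Figure D2:**
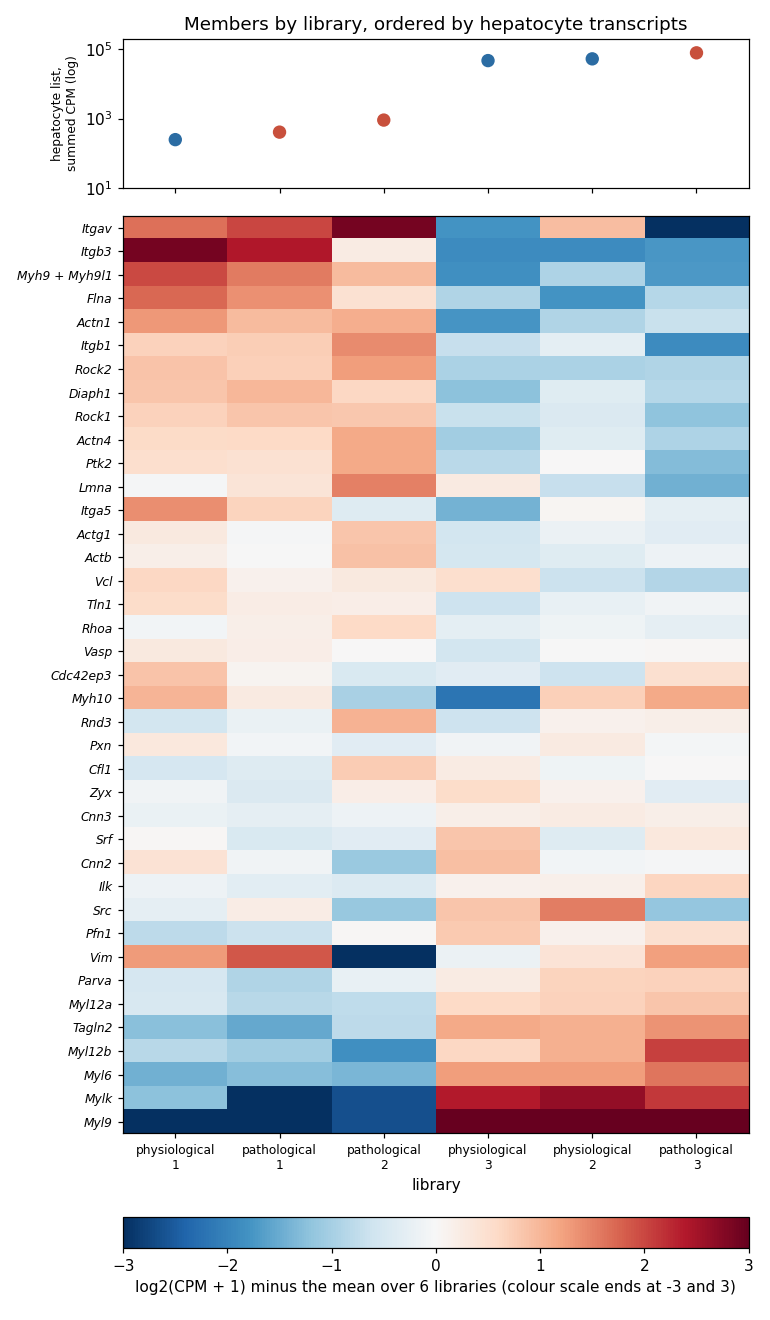
Upper panel: summed CPM of 30 hepatocyte genes in each library on a log axis, physiological in blue and pathological in red. Lower panel: log2(CPM + 1) of each tested member minus its mean over the 6 libraries, with Myh9 shown as the sum of its 2 identifiers; rows run from members highest in the poor libraries (top) to those highest in the rich ones (bottom), and in most rows at either end the colours change between the poor libraries (left) and the rich ones (right).

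Among the actin genes, the cytoplasmic actins were highest in pathological replicate 2. Actb measured 2210, 1530 and 1360 CPM at physiological and 1930, 3600 and 1750 CPM at pathological pressure (log2 fold change 0.51 ± 0.64, SE, n = 3 per group). Actg1, the gamma isoform with a CArG box shown above, measured 1660, 1210 and 926 CPM and 1340, 2430 and 1070 CPM. The genes shared their highest 3 libraries in the same order, and the groups overlapped for both. Actb and Actg1 have nearly the same coding sequence, and their expected counts were mostly not whole numbers, which shows that some reads were divided among genes, so each level is uncertain. Their sum, which does not depend on the division between the pair, was 3870, 2740 and 2290 CPM and 3270, 6030 and 2820 CPM.

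The crosslinkers were highest in the poor libraries. Actn4, an alpha-actinin of non-muscle cells, had the highest fold of this list and measured 920, 480 and 296 CPM at physiological and 936, 1360 and 326 CPM at pathological pressure. Its log2 fold change was 0.63 ± 0.74, and the lowest value of each group was in its replicate 3. Actn1, its relative, measured 337, 72.0 and 39.1 CPM and 263, 288 and 84.4 CPM. The filamin Flna, which links filaments into gels, measured 919, 78.9 and 147 CPM and 712, 382 and 151 CPM. For Flna the highest and the lowest library both belonged to the physiological group, an 11.6-fold range. Without physiological replicate 1 the log2 fold changes of Flna and Actn1 were 1.99 and 2.03, against 0.12 and 0.51 with all libraries.

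Small actin-binding proteins showed other orders. Cnn2, a calponin that damps myosin activity on actin and carries a CArG box, had the lowest fold of the list and measured 45.8, 31.4 and 63.0 CPM at physiological and 31.0, 14.8 and 32.7 CPM at pathological pressure. Its log2 fold change was -0.84 ± 0.86, and pathological replicate 2 lay far below, replicate 1 just below and replicate 3 just above the lowest physiological library. Cnn3, another calponin, was the steadiest member, with 355 to 506 CPM over the 6 libraries. Tagln2 (transgelin 2, a filament stabiliser) measured 198, 990 and 1040 CPM and 163, 272 and 1210 CPM, which are high in the rich libraries and low in the poor ones. Cfl1 (cofilin, which severs filaments) and Pfn1 (profilin, which feeds monomers to growing ends) ranged from 770 to 1860 CPM and from 426 to 1260 CPM. In this list 6 of 10 genes had a positive log2 fold change, with a median of 0.22, and 0 passed the test.

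**Figure D3:**
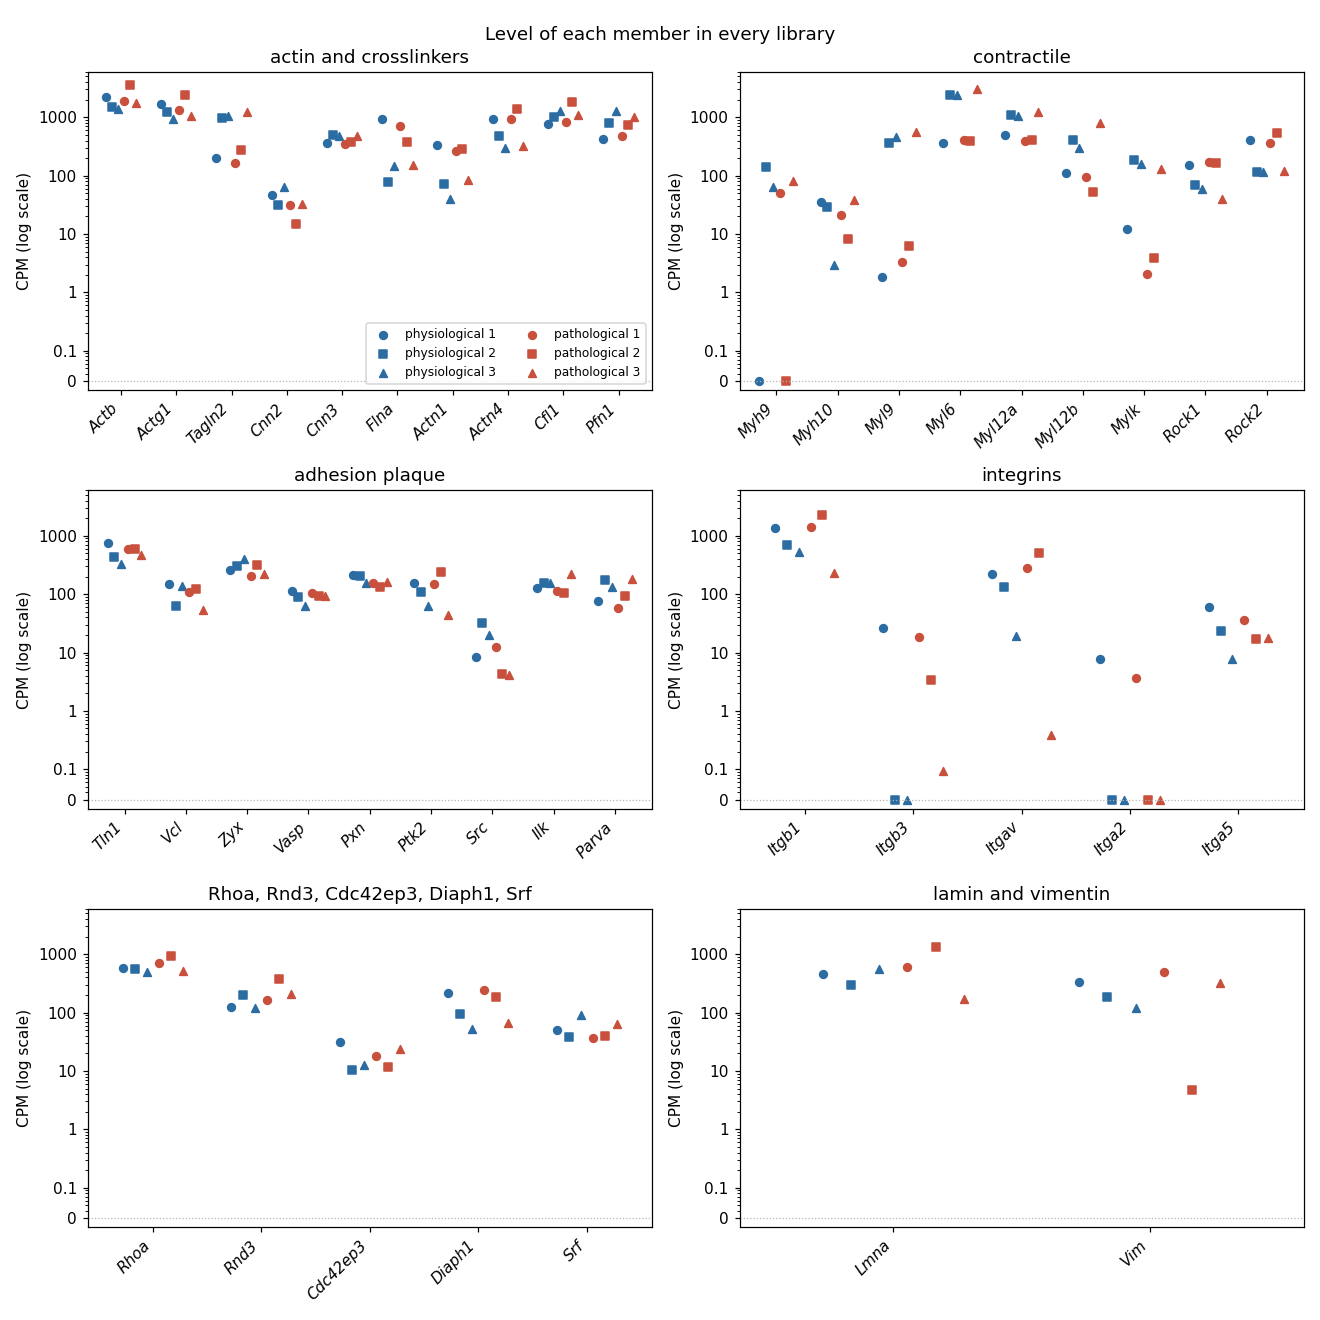
CPM of all 40 members (log scale, 0 drawn on the dotted line) in 6 panels by role. Blue symbols are physiological and red symbols pathological libraries, with circle, square and triangle for replicates 1, 2 and 3. Circles and the red square stand apart from the other symbols in Myl9, Myl6 and Mylk, and colours mix throughout.

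The contractile genes included members with very large differences between libraries. Myl9, a regulatory light chain of smooth muscle and non-muscle myosin, measured 1.84, 361 and 468 CPM at physiological and 3.29, 6.30 and 563 CPM at pathological pressure, a 306-fold range. Mylk, the myosin light chain kinase gene, measured 12.0, 189 and 158 CPM and 2.11, 3.88 and 132 CPM. In both genes the 3 rich libraries stood far above the 3 poor ones. Mylk had the lowest fold of the list at a log2 fold change of -1.38 ± 1.59 (unadjusted p = 0.411, edgeR adjusted p = 1), and its pathological values were also below the physiological ones within the poor and within the rich libraries. Leaving out pathological replicate 3 gave a Mylk value of -5.30 and leaving out pathological replicate 1 gave -0.82, while limma-voom gave -3.14 with all libraries. With hepatocyte content as a covariate in edgeR the Mylk value was -1.84. In that fit Mylk was the 1 member of 39 with an unadjusted p under 0.05, against 0.628% of all genes, and 0 members passed the adjusted threshold. Myl6, the essential light chain, measured 367, 2380 and 2400 CPM and 414, 388 and 3040 CPM.

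Among 13 tested stellate cell genes, 10 were likewise lower in each poor library than in each rich one, as was 1 of 4 tested smooth muscle and myofibroblast genes. The stellate cell retinol enzyme Lrat stood at 1.12, 605 and 660 CPM and at 2.25, 8.24 and 923 CPM, and desmin (Des) at 1.32, 86.8 and 113 CPM and at 0.858, 4.26 and 210 CPM. A list of 9 smooth muscle and myofibroblast genes summed to 48.7, 291 and 198 CPM and to 50.1, 123 and 457 CPM. The defining gene Acta2, smooth muscle actin, stood at 2.93, 13.0 and 23.5 CPM and at 1.18, 0.616 and 0 CPM, and Cnn1 stayed between 0 and 1.04 CPM. So in pathological replicate 3, where Myl9 was highest, Acta2 had no count, while Tagln stood at 153 CPM. The part of stellate or smooth muscle RNA in the levels of Myl9, Myl6 and Mylk was not tested. Pathological replicate 3 was the only rich library of its group. Without it, 4 of the 40 members tested in that edgeR fit had an unadjusted p under 0.05, against 5.81% of all genes. These were Mylk, Myl12b, Myl9 and Myl6, all contractile, and 0 members passed the adjusted threshold. With Myh9 as counted under its own identifier, the median of the contractile list was -0.40 with all libraries. It was -1.38 without pathological replicate 3 and 0.18 without physiological replicate 2.

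The paralogs Myl12a and Myl12b encode nearly identical regulatory light chains of non-muscle myosin, and their expected counts were not whole numbers in any library, so their separate levels are uncertain too. Myl12a ranged from 385 to 1220 CPM and Myl12b from 53.1 to 801 CPM. Their sum was 601, 1520 and 1340 CPM at physiological and 479, 458 and 2020 CPM at pathological pressure, again high in the rich libraries.

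The non-muscle myosin heavy chain gene Myh9 was split between 2 identifiers, a fact found after its values were seen. Under its own identifier Myh9 was listed at 0, 140 and 63.0 CPM at physiological and at 51.0, 0 and 80.3 CPM at pathological pressure, although neither library at 0 was shallow. A further identifier, Myh9l1, held 32286, 0 and 75 counts and 20483, 10964 and 0 counts, and RefSeq gives Myh9l1 as a synonym of Myh9. The summed level was 1062, 139.6 and 73.69 CPM and 783.4, 519.4 and 80.27 CPM. Summing therefore turned the order of libraries round: the poor libraries were all above the rich ones, as for Flna and Actn1. The log2 fold change was -0.63 ± 2.41 for the single identifier and 0.12 for the sum. With the counts summed, the median of the contractile list was 0.01 instead of -0.40. Over all members the median was 0.12 instead of 0.01, with 22 of 39 positive instead of 21. With the sum, 15 members had all poor libraries above all rich ones and 10 the opposite. Myh10, which encodes non-muscle myosin IIB, ranged from 2.99 to 39 CPM with its lowest and highest values in the replicate 3 libraries of the 2 pressures.

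Rock1 and Rock2 went the other way from the light chains. Rock2 had the highest fold of the contractile list and measured 406, 115 and 116 CPM at physiological and 369, 538 and 119 CPM at pathological pressure (log2 fold change 0.69 ± 0.80.) Rock1 measured 152, 69.1 and 58.6 CPM and 169, 167 and 40 CPM. For both kinases the 3 poor libraries were above the 3 rich ones. With Myh9 under its own identifier, 4 of the 9 contractile genes had a positive and 5 a negative log2 fold change, and 0 passed the test.

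The adhesion plaque held several of the steadier members. Pxn (paxillin, the adhesion scaffold), Vasp (which promotes filament growth) and Zyx (zyxin, a tension-recruited adhesion protein) varied by under 2-fold between the highest and lowest of the 6 libraries, as did Cnn3 and Rhoa. That makes 5 of 39 members against 2.69% of all genes, and the members' median level of 199 CPM was above the 21.2 CPM of all genes. Among 138 tested other genes of the pathway, taken up further on, 16 varied by under 2-fold, so this was not particular to the members. Zyx measured 257, 303 and 403 CPM at physiological and 206, 315 and 219 CPM at pathological pressure (log2 fold change -0.38 ± 0.55.) Pathological replicate 2 lay inside the physiological range and the other pathological libraries below it. Pxn measured 211, 201 and 156 CPM and 158, 133 and 161 CPM, with a 95% confidence interval of its log2 fold change from -1.57 to 0.91.

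Among the kinases of the plaque, Ptk2 and Src gave the highest and the lowest fold. Ptk2, focal adhesion kinase, measured 153, 109 and 61.4 CPM and 150, 241 and 43.3 CPM, a log2 fold change of 0.43 ± 0.77. Without pathological replicate 2, its highest library, this was -0.15. Src, which phosphorylates plaque proteins together with focal adhesion kinase, measured 8.52, 32.5 and 19.7 CPM and 12.4, 4.22 and 4.17 CPM, a log2 fold change of -1.54 ± 1.37 (unadjusted p = 0.294, edgeR adjusted p = 1). Its pathological replicates 2 and 3 lay below every physiological library, and pathological replicate 1 lay inside their range. Leaving out single libraries moved the Src value between -2.26 and -0.95.

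The remaining plaque genes had small estimated differences between the pressures, but their confidence intervals were wide. The log2 fold change was 0.12 for Tln1 (interval -1.2 to 1.45) and -0.22 for Parva (-1.8 to 1.36). The intervals were -1.36 to 1.37 for Ilk and -1.87 to 1.21 for Vcl. Larger differences in either direction were therefore not excluded for these genes. Tln1 (talin, the link from integrin tails to actin) ranged from 330 to 749 CPM and Vcl (vinculin, which strengthens that link) from 53.4 to 151 CPM. Vcl was lower at pathological pressure within the poor libraries, at 107 and 121 against 151 CPM, and within the rich ones, at 53.4 against 62.3 and 140 CPM. Over all libraries its log2 fold change was -0.33 ± 0.67. Ilk and Parva, partners in a complex at integrin tails, ranged from 105 to 219 CPM and from 58.5 to 180 CPM, both highest in pathological replicate 3. Of the 9 plaque genes 4 were positive and 5 negative, with a median of -0.22, and 0 passed the test.

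Integrin levels differed between libraries more than those of the plaque. Itgb1, the beta chain shared by most matrix receptors, measured 1370, 695 and 524 CPM at physiological and 1420, 2260 and 228 CPM at pathological pressure (log2 fold change 0.59 ± 0.88.) Itgav, the alpha chain of vitronectin receptors, had the highest fold of all members and measured 219, 133 and 19.1 CPM and 280, 514 and 0.379 CPM. Itgb1 and Itgav stood in the same order across the 6 libraries, with pathological replicate 2 highest and pathological replicate 3 lowest. The Itgav value of pathological replicate 3 came from 4 counts, beside 134 in physiological replicate 3, a library with a smaller total. Its log2 fold change was 1.10 ± 1.65 over all libraries. Within the poor libraries alone it was 0.86, and within the rich libraries alone -7.61 (edgeR adjusted p = 0.000377), a fit that compares 2 physiological libraries with 1 pathological library. That was the 1 member called in the rich libraries, where 1.93% of 12652 genes were called, and the lone pathological library was assumed to vary like the physiological pair.

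The other integrins were low. Itga5, the fibronectin receptor chain, had the lowest fold of the list and measured 60, 23.0 and 7.70 CPM and 35.8, 16.7 and 17.8 CPM, a log2 fold change of -0.37 ± 1.10. The value was 0.70 without physiological replicate 1, its highest library. Itgb3, the partner of the alpha-v chain, had 793, 0 and 0 counts at physiological and 514, 72 and 1 at pathological pressure. Itga2, a collagen receptor chain, had 235 counts in physiological replicate 1, 104 in pathological replicate 1 and 0 in the other 4 libraries. For both genes most counts thus lay in replicate 1 of each group. Pathological replicate 2, with 23649036 counts in all against 23754767 in pathological replicate 1, was about as deep. Of the 4 tested integrins 2 were positive and 2 negative, and 0 passed the test.

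Rnd3 had the smallest unadjusted p of the 39 members. It measured 125, 201 and 120 CPM at physiological and 161, 381 and 208 CPM at pathological pressure (log2 fold change 0.75 ± 0.61, unadjusted p = 0.255, edgeR adjusted p = 1). Pathological replicates 2 and 3 were above every physiological library, and pathological replicate 1 was below physiological replicate 2. The value stayed positive, between 0.31 and 1.05, when single libraries were left out. Rhoa measured 574, 555 and 501 CPM and 693, 930 and 506 CPM, a log2 fold change of 0.39 ± 0.55. Diaph1, a formin that nucleates filaments, ranged from 51.5 to 246 CPM, and Cdc42ep3, an effector of Cdc42, from 10.5 to 30.9 CPM.

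Srf itself measured 51.2, 38.2 and 91.1 CPM and 36.7, 39.6 and 62.5 CPM, a log2 fold change of -0.38 ± 0.75, the lowest of its list. In both groups replicate 3 held the highest value, and the groups overlapped. The other genes with a CArG box had log2 fold changes of 0.75 (Rnd3), 0.35 (Actg1) and -0.84 (Cnn2), so the sign was not shared among them. In this list 3 of 5 genes were positive and 2 negative, with a median of 0.39, and 0 passed the test.

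The lamin and vimentin genes belong to networks that are joined to actin. Lmna, which encodes the A-type lamins of the nuclear envelope, measured 456, 291 and 565 CPM at physiological and 611, 1340 and 173 CPM at pathological pressure (log2 fold change 0.69 ± 0.79.) The highest and the lowest library were both pathological. Vim, the intermediate filament of mesenchymal and endothelial cells, measured 332, 183 and 121 CPM and 497, 4.64 and 320 CPM, a log2 fold change of 0.37 ± 1.23. Pathological replicate 2 thus held 98 counts of Vim where the other libraries held 850 to 13886. Of the 15 macrophage genes 11 were lowest in the same library, where Cd68 and Vsig4 stood at 5.59 and 0.0474 CPM against at least 48.1 and 39.3 CPM in the others. The part of macrophage RNA in the Vim level was not tested. Without pathological replicate 2 the log2 fold change of Vim was 0.95, and without pathological replicate 1 it was -0.41.

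Further genes of the pathway were taken from 9 lists, of which 154 genes were matched and 138 tested. None passed the test in either direction, by the same fit in which 0.0% of all genes were called. Of the 138, 77 were positive and 61 negative, with a median of 0.08. Of 20 filament turnover genes 16 were positive (median 0.25). Capza2, a subunit of the protein that caps filament ends, had the smallest p there and measured 234, 116 and 108 CPM at physiological and 268, 488 and 101 CPM at pathological pressure. The Arp2/3 complex, which makes branched filaments, and its activators had 10 of 20 genes positive and a median of 0.0. Was, an activator found in blood cells, had the smallest p of this list and measured 5.07, 0 and 0 CPM and 14.2, 4.45 and 38.2 CPM. Its highest value was in pathological replicate 3, where the list of 15 macrophage genes also summed highest, at 1390 CPM, although the leukocyte gene Ptprc had 0 CPM there. The part of macrophage RNA in its level was not tested.

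Crosslinking and adhesion genes outside the members were as mixed. In the list of bundling and membrane linkage 10 of 15 were positive, and Add3, an adducin of the membrane skeleton, measured 80.2, 171 and 125 CPM and 31.9, 19.9 and 128 CPM. Among 29 other adhesion adaptors 18 were positive. Tgfb1i1 (Hic-5, a paxillin relative) was 1 of the 2 genes among the 138 whose groups did not overlap, beside 4.61% of all genes, at 12.7, 26.7 and 65.4 CPM and 7.01, 0.995 and 0 CPM. Its log2 fold change was -3.70 ± 1.95 (unadjusted p = 0.0942, edgeR adjusted p = 1). The stellate gene Pdgfrb stood at 4.38, 18.1 and 61.1 CPM and at 0.501, 0.900 and 0 CPM, and Acta2 as given above. These genes were lowest in the same library as Tgfb1i1, although the stellate list as a whole summed highest there, and the part of stellate RNA in its level was not tested. The other gene without overlap was Arhgap35, with 109, 86.2 and 82.5 CPM and 82.5, 50.3 and 31.3 CPM, so that its nearest libraries differed by less than the rounding.

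Further lists gave 5 of 8 positive genes for other myosin II genes and the light chain phosphatase, 2 of 7 for other integrins, 3 of 8 for other lamins and nuclear linkers, and 1 of 4 for SRF cofactors. Ppp1r12a, which targets the phosphatase to myosin, measured 153, 56.9 and 17.8 CPM and 139, 154 and 58.5 CPM, high in the poor libraries like Rock1 and Rock2. Sun2, which couples the lamina to the cytoskeleton, measured 205, 66.2 and 34.2 CPM and 291, 334 and 29.2 CPM. Elk4, a partner of SRF, measured 225, 79.2 and 112 CPM and 149, 50.5 and 83.0 CPM. Itga9, an integrin alpha chain, measured 4.80, 3.88 and 0 CPM and 1.93, 0.237 and 0 CPM.

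**Figure D4:**
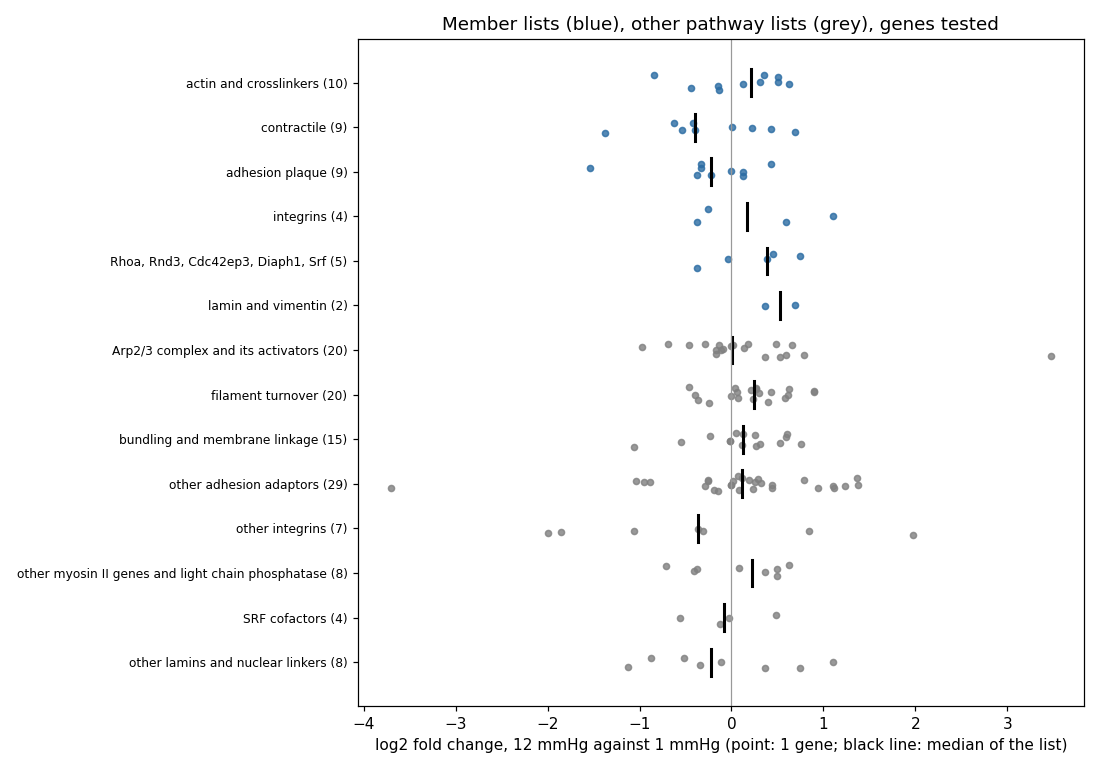
Log2 fold change at 12 mmHg against 1 mmHg for each tested gene (points) in the 6 role lists of the members (blue) and 8 lists of other genes of the pathway (grey), with the list median as a black line and the number of genes tested in brackets. Medians lie between -0.40 and 0.53 on both sides of 0, and Tgfb1i1 and Was are the points farthest out. Myh9 is counted under its own identifier, and with both identifiers summed the contractile median was 0.01.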

How the data were processed

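Each library has a file in which the authors deposited expected counts for every gene (per the file headers). The submitters' processing notes name STAR, RSEM and limma, with genome build, annotation and strand use not given in the sources used here. Between 4.33% and 10.4% of values per library were not whole. They were rounded and tested with edgeR 4.0.16 in R 4.3.3 (TMM scaling, filterByExpr, two-sided quasi-likelihood test, Benjamini-Hochberg adjustment over 12742 genes). CPM was computed here from TMM-scaled totals; standard errors and 95% intervals come from the fit. Replicates were numbered in accession order, and no source states that they are separate animals or cultures. The p-values then reflect only how these samples vary, which may be technical variation. No 2 libraries matched within sampling noise (chi-square per degree of freedom at least 88.14). This lowest value was for physiological replicate 1 against pathological replicate 1. For replicates 2 and 3 of the 2 groups it was 906 and 305.5. Whether any of these pairs shared a preparation was not tested.

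Members and lists were chosen with earlier results of these data known. Values in every library were given for the 2 smallest p and the extreme folds of each role list, and for the smallest p of each other list; further named genes were chosen after their values were seen. Of 157 symbols of other pathway genes 154 were matched, and of 107 marker symbols 102, with a RefSeq table (GRCr8) used for synonyms and promoters. Alternatives were DESeq2 1.42.0, limma-voom (limma 3.58.1), other scaling and filters, each library left out, and hepatocyte content. On simulated counts for this comparison, the test recovered 29 of 66 genes with a 2-fold change and 67 of 67 with a 4-fold change at a dispersion of 0.05 (12635 genes tested). At the estimated dispersions it recovered 0 of 57 with a 16-fold change (11118 tested). The square root of the common dispersion estimated from these libraries was 1.39. A dispersion of 0.05 is thus far below that of the data, and the recovery at 0.05 does not carry over to them. The result of 1 of the 9 lists of other pathway genes is not reported here.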

Additional observations from a re-analysis of the deposited data

How the results depend on the processing

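The count of 0 members past the threshold held under each alternative tried except the fit to the 3 libraries rich in hepatocyte RNA, where 1 member (Itgav) and 244 genes passed. DESeq2 called 1 gene. An unadjusted p under 0.05 was found for 33 genes in the main edgeR fit and for 178 in DESeq2. With 1 library left out, the members' median log2 fold change ran from -0.12 to 0.51. The upper value, without physiological replicate 1, goes with a median of 0.30 over all genes. With DESeq2 size factors the median over all genes was 0.15 instead of 0.05, and over the members 0.11 instead of 0.01. The hepatocyte covariate moved the median of all genes to -0.21 and left that of the members at 0.01.

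Of 39 tested members 31 changed sign under at least 1 alternative, and Actb, Cnn2, Mylk, Pxn, Rnd3, Rock2, Src and Vcl under none. None of the 39 was past the threshold with all libraries, and the cause of these changes was not tested. For the members named by rule and Myh9 the values were as follows. With limma-voom, Itgav was -0.15, Vim -1.32 and Myh9 1.19. With the hepatocyte covariate, Ptk2 was -0.04, Itgb1 -0.12, Itgav -0.98 and Myh9 2.5. In the poor libraries alone, Zyx was 0.02, Vim -0.37 and Myh9 12.43. In the rich libraries alone, Actn4 was -0.24, Ptk2 -0.96, Itgb1 -1.41, Itgav -7.61, Itga5 0.22, Rhoa -0.05 and Lmna -1.28. With the reads of both identifiers summed, an alternative chosen after seeing the data, Myh9 was 0.12. With single libraries left out, the ranges were -0.83 to 0.70 for Itga5, -1.38 to 0.56 for Myh9, -0.64 to 0.04 for Srf, -0.41 to 0.95 for Vim, -0.15 to 0.86 for Ptk2, -0.06 to 1.19 for Itgb1 and -0.15 to 1.17 for Lmna. No paired analysis was possible because the labels give the groups no shared replicate numbers. Sample numbers in the labels are 2, 11 and 22 for physiological and 3, 9 and 23 for pathological replicates 1, 2 and 3, and no source says whether neighbouring numbers mark a shared preparation. With 3 against 3 libraries an exact permutation test cannot go below p = 0.1. Itga2 had 0 counts in 4 libraries and Itgb3 in 2.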
